A study of Mus musculus with 3 samples.

Results

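The genes of MHC class I antigen presentation were followed through 3 single-cell RNA libraries of mouse CD8 T cells. They are 9 genes, chosen by name with earlier results of these data known, of 31053 genes counted. Their products are the heavy chains H2-K1, H2-D1, H2-Q7 and H2-T23, the light chain B2m, the peptide transporter subunits Tap1 and Tap2, the loading factor Tapbp and the transcription factor Nlrc5. All 9 had counts in every library and passed the minimum of 20 CPM (counts per library scaled to one common total) used for comparisons. The cells are labelled P14, T cells with a transgenic receptor for an LCMV peptide held by the class I molecule H-2Db. The TdLN library came from tumour-draining lymph nodes and the PBMC library from blood, both 16 days after transfer of naive P14 cells from TCF-1-GFP reporter mice. The recipients were C57BL/6 mice that had been given B16.Gp cells, a B16.F10 melanoma line made to carry the LCMV glycoprotein, 8 days before the transfer. Both sorts took CD8 T cells positive for CD45.1 and CD44. The memory library held P14 cells taken 200 days after acute LCMV infection, from a CD8 gate positive for CD127, CD44 and CD45.1 and negative for KLRG1. All 3 libraries are labelled strain C57BL/6 and genotype WT. The tissue of the memory cells, the number and age of the mice, and whether the memory cells carried the reporter are not stated, and tumour-infiltrating cells named in the study design were not analysed here. The study set cells of the tumour model against memory cells as the control. Each group was 1 library, so differences have no replicate check, no p-value is given, and the 95% intervals in parentheses cover counting error only.

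Cells were kept with 500 or more detected genes and no more than 10% of counts from mt- genes. The TdLN library held 6265 cells and 69537836 counts, the PBMC library 5652 cells and 48987260 counts, and the memory library 7003 cells and 70116366 counts. A count of 0 allowed up to 0.0431, 0.0612 and 0.0428 CPM in these 3 libraries, in that order. Libraries shared between 11 and 17 barcodes in pairs, at most 0.276% of the smaller library. All 8 CD8 T cell markers were detected in every library, at summed levels of 4983 to 6247 CPM. Of 8 myeloid markers, Adgre1, C1qa and C1qb were at 0 in PBMC and none was at 0 elsewhere, with sums of 91.6 CPM (memory) to 278 CPM (TdLN). B cell markers summed to 292 CPM in TdLN and at most 119 CPM in the others. At least 5 UMIs of B cell, myeloid or erythroid and platelet markers were found in 1167 TdLN, 292 PBMC and 71 memory cells. These cells were kept in the library values, so TdLN levels are not those of CD8 T cells alone. The PBMC library held many cells with RNA of effector genes (Gzma, Gzmb, Cx3cr1, Klrg1, Zeb2 and S1pr5): their summed level was 1804 CPM, against 38.4 CPM in TdLN and 68.2 CPM in memory. The P14 receptor uses the beta chain segment Trbv13-3. Of the PBMC cells with at least 3 effector UMIs, 120 showed Trbv13-3 as their only beta segment and 295 showed other segments only, against 719 and 129 of the PBMC cells with no effector UMI. A further 1859 and 1520 cells showed no beta segment. Receptor RNA thus matched the P14 label in 120 of the blood effector-list cells and went against it in 295, and the main results on the members in blood are also given without them.

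Class I molecules show peptides from inside the cell to CD8 T cells and to inhibitory receptors of NK cells, and T cells carry them as other nucleated cells do. A heavy chain folds with beta-2 microglobulin, and the TAP transporter and tapasin bring in and fit the peptide before the complex leaves for the surface. Nlrc5 is the class I transactivator, which acts at the conserved promoter boxes of class I genes. Interferons raise most genes of the pathway, and in T cells class I is also known to rise after activation.

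Promoter windows from RefSeq (GRCm38.p6, 250 bases before to 50 after the annotated start) matched 7 of the 9 members. They are shown because heavy chains, light chain and transporter genes, whose levels are compared below, carry different known elements there. Each line is the stretch of the window that holds the matches, on the gene's own strand. Capitals mark matches on either strand to 6 motifs. They are GAANNGAAA, the same with GAAA on both sides (the full interferon-response motif), 2 forms of the NF-kB motif, TGACGC and CCAAT. Isg15, an interferon-induced gene used below to class the cells, is added for comparison.
H2-K1 (chr17:34000327-34000466, minus strand): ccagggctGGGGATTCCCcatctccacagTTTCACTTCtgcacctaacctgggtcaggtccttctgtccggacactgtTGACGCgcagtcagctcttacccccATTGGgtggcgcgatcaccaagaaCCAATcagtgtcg
H2-D1 (chr17:35262915-35263053, plus strand): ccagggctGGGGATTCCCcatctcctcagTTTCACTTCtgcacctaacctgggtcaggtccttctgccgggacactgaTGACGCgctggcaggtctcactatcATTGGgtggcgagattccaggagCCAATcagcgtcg
H2-Q7 (chr17:35439014-35439151, plus strand): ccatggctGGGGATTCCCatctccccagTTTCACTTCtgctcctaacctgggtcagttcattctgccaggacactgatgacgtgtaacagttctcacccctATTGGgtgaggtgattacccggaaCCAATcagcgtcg
H2-T23 (chr17:36032741-36032833, minus strand): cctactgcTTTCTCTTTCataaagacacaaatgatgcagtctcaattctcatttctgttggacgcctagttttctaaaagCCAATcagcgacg
B2m (chr2:122147540-122147646, plus strand): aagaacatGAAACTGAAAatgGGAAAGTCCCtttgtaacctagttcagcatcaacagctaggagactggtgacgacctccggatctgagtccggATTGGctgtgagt
Tap1 (chr17:34187326-34187346, plus strand): tcggctttCCAATcagcggct
Tapbp (chr17:33919228-33919325, plus strand): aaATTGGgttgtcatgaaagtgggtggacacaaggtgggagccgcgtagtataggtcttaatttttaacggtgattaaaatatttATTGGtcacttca
Isg15 (chr4:156200867-156200954, minus strand): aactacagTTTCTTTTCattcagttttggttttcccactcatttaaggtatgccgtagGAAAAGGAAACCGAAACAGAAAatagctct

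The windows of H2-K1, H2-D1 and H2-Q7 shared the order of the palindromic NF-kB motif (their first capitals), 1 GAANNGAAA match (the core of an interferon-response element) and 2 CCAAT boxes. That NF-kB motif lay in 0.104% of 27025 windows of 300 bases, GAANNGAAA in 7.56% and CCAAT in 37.9%. The X2 box letters TGACGC, found in 7.50% of windows, were in those of H2-K1 and H2-D1. The full interferon-response motif, found in 3.49% of windows, was in those of H2-T23 and B2m. Isg15 had 3 overlapping matches of it and 1 separate GAANNGAAA match. B2m also had the other NF-kB form (its second capitals), found in 0.385% of windows. The Tap1 and Tapbp windows matched CCAAT only. For each gene only the first RefSeq window listed was used. By the GENCODE coordinates given below, the Tapbp stretch lay inside the gene (33915899 to 33929292), far from that annotation's start. Its matches therefore do not describe a promoter at the GENCODE start. The stretches of H2-D1 and H2-T23 also lay inside their genes, but much closer to the start. A match describes letters in the window, and none was tested as a site.

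Among the classical heavy chains, H2-K1 differed least between the 3 libraries when all kept cells were summed. Blood cells with and without effector RNA differed in H2-K1, as given below. H2-K1 (ENSMUSG00000061232, chromosome 17, 33996017 to 34000347, GRCm38) encodes H-2Kb in this strain. It stood at 2160.5 CPM in TdLN (2149.6–2171), 2199.9 CPM in PBMC (2187–2213) and 2189 CPM in memory (2178–2199.6). The values spanned less than 1.02-fold, and the ratio of PBMC over memory was 1.01 (0.997–1.01), or 0.996 with trimmed-mean (TMM) scaling. Under TMM, TdLN stood at 0.888 of memory and 0.892 of PBMC. H2-D1 (ENSMUSG00000073411, chromosome 17, 35262730 to 35267499) encodes H-2Db, the molecule that holds the P14 cells' own peptide. Its level was 1543 CPM in TdLN, 2005 CPM in PBMC and 1845 CPM in memory. TdLN was lowest and PBMC highest: TdLN over PBMC was 0.770 (0.763–0.776), and TdLN over memory 0.836 (0.83–0.843).

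The class Ib heavy chains differed more than H2-K1 did. H2-Q7 (ENSMUSG00000060550, chromosome 17, 35439155 to 35443773) encodes a Qa-2 heavy chain and has near-identical neighbours, so reads from its Q-region relatives may have been lost or misplaced in the authors' counting. It stood at 656 CPM in the TdLN cells, 1127 CPM in blood and 898 CPM in memory. TdLN was 1.72-fold lower than PBMC (1.7–1.74) and its ratio was above those of only 2.61% of compared genes. H2-T23 (ENSMUSG00000067212, chromosome 17, 36029773 to 36032855) encodes Qa-1b, the ligand of the NK cell receptor CD94-NKG2A. Its level was 234 CPM in TdLN, 281 CPM in PBMC and 207 CPM in memory, with PBMC highest and 1.36-fold above memory (1.33–1.39). The light chain gene B2m (ENSMUSG00000060802, chromosome 2, 122147686 to 122153083) stood at 1852 CPM in TdLN, 1926 CPM in PBMC and 1926 CPM in memory. Its PBMC over memory ratio was 1.0002 (0.992–1.01), and 0.991 with TMM scaling.

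Peptide supply and loading genes were highest in TdLN. Tapbp (ENSMUSG00000024308, chromosome 17, 33915899 to 33929292), which encodes tapasin, stood at 156 CPM in TdLN, 90.2 CPM in PBMC and 95.1 CPM in memory. TdLN was 1.64-fold above memory (1.59–1.69) and 1.73-fold above PBMC (1.67–1.79). Tap1 (ENSMUSG00000037321, chromosome 17, 34187553 to 34197225) stood at 108 CPM in TdLN, 82.4 CPM in blood and 74.1 CPM in memory cells, 1.46-fold higher in TdLN than in memory (1.41–1.51). Tap2 (ENSMUSG00000024339, chromosome 17, 34203527 to 34216321) stood at 97.3 CPM in TdLN, 84.4 CPM in PBMC and 77.0 CPM in memory. Its TdLN over memory ratio of 1.26 (1.22–1.31) was the smallest of these 3. Nlrc5 (ENSMUSG00000074151, chromosome 8, 94434356 to 94527272) stood at 32.5 CPM in TdLN, 34.2 CPM in PBMC and 32.8 CPM in memory, with overlapping counting intervals at this scaling.

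**Figure D1:**
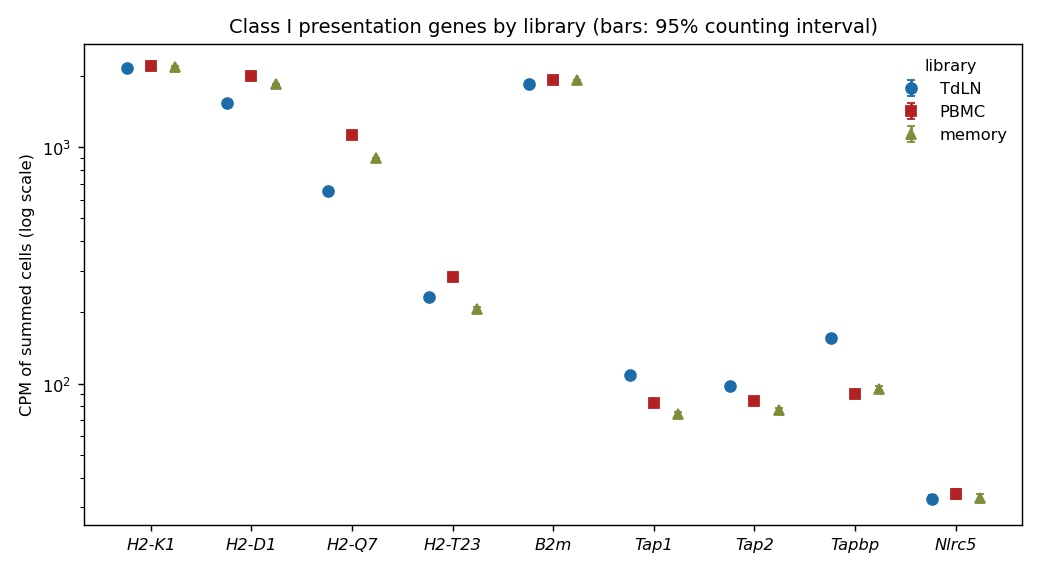
CPM of the 9 genes (log axis) in the TdLN, PBMC and memory libraries, 1 point per library with its 95% counting interval, mostly smaller than the symbol. H2-K1, B2m and Nlrc5 lay close together, H2-Q7 was lowest in TdLN (656 CPM) and highest in PBMC (1127 CPM), and Tapbp was highest in TdLN at 156 CPM.

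With a fixed rule of at least 1.5-fold, 1 of the 9 genes differed between TdLN and memory (Tapbp, higher), while 17.9% of 4647 genes compared did so in either direction, 12.7% higher and 5.23% lower. No member reached it in PBMC over memory, where 8.1% of 4384 genes did, 4.47% higher and 3.63% lower. In TdLN over PBMC, 2 did (Tapbp higher, H2-Q7 lower), while 14.5% of 4606 genes did, 10.4% higher and 4.17% lower. At 2-fold no member differed in any pair, while 6.11%, 2.37% and 4.86% of genes did. At a ratio of 5 to 4, 4 members differed between TdLN and memory, 2 between PBMC and memory and 4 between TdLN and PBMC, while 43.3%, 25.5% and 38.2% of genes did. The members' median log2 ratio was -0.01 for TdLN against memory, 0.12 for PBMC against memory and -0.06 for TdLN against PBMC. The medians of all compared genes were 0.17, 0.05 and 0.12. TMM scaling lowered every log2 ratio of TdLN over memory by 0.15 and of TdLN over PBMC by 0.14. Of all genes past 1.5-fold, 590 higher and 243 lower in TdLN over memory became 372 and 371, and 477 and 192 in TdLN over PBMC became 293 and 296. Under TMM the Tapbp ratio of TdLN over memory was 1.48 and no longer past the rule, while H2-Q7 at 0.658 was. Scaling on totals without ribosomal, mitochondrial, Gm42418 and Lars2 counts turned 196 higher and 159 lower in PBMC over memory into 146 and 235.

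Ratios of UMIs between members within a library need no scaling and gave the same order of libraries for H2-Q7, H2-D1 and Tapbp. H2-Q7 had 0.304 UMIs per H2-K1 UMI in TdLN (0.300–0.307), 0.512 in PBMC (0.507–0.518) and 0.410 in memory (0.406–0.414). H2-D1 had 0.714 UMIs per H2-K1 UMI in TdLN, 0.911 in PBMC and 0.843 in memory. For Tapbp the numbers were 0.0722 in TdLN, 0.0410 in PBMC and 0.0435 in memory. B2m had 0.857 UMIs per H2-K1 UMI in TdLN, 0.876 in PBMC and 0.880 in memory, a narrow range with memory highest. In cells with 0 effector UMIs, H2-Q7 had 0.310, 0.444 and 0.404 UMIs per H2-K1 UMI in TdLN, PBMC and memory cells, and Tapbp 0.0700, 0.0491 and 0.0433. B2m in those cells had 0.832, 0.985 and 0.878, a wider range with PBMC highest. The mix of class I transcripts therefore differed between libraries by a measure that does not depend on scaling.

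The blood library's high H2-Q7 and H2-D1 lay in its effector-list cells. Cells were thinned to 4000 UMIs each to equalise depth, which left out 187 TdLN, 379 PBMC and 240 memory cells that were shallower. In PBMC, 2303 cells had at least 3 UMIs of the 6 effector genes and 2408 had 0, a split looked at after the library values were known. H2-Q7 stood at 1844 CPM in the effector-list cells, against 822 CPM in cells without the list, 2.24-fold higher (2.18–2.3). H2-D1 stood at 2995 CPM, against 1578 CPM (1.90-fold, 1.86–1.94), and H2-K1 at 3012 CPM, against 1852 CPM (1.63-fold, 1.6–1.66). Nlrc5 was 1.94-fold higher (1.66–2.28) and Tap1 1.56-fold higher (1.41–1.73), though Tap1 was at 1.44 with another thinning seed. Tap2 at 1.42 (1.29–1.57), H2-T23 at 1.34 (1.27–1.41), B2m at 1.20 (1.17–1.22) and Tapbp at 1.01 (0.917–1.11) stayed under 1.5-fold.

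These counts have to be read against a shift of the whole profile. The 5 of 9 members past 1.5-fold compare with 37.5% of 4801 genes that were higher by as much. The median over all genes was 0.48 on the log2 scale. H2-Q7's ratio was above those of 92.1% of genes, H2-D1's above 86.6% and Nlrc5's above 87.6%, while B2m's was above 29.6% and Tapbp's above 15.7%. Before thinning, effector-list cells had a median of 5310 UMIs, against 12079 UMIs in cells without the list. How far this depth difference entered the ratios was not tested. Cells with Trbv13-3 as their only beta segment gave 1677 CPM of H2-Q7 in effector-list cells (120 cells, 1563–1797), against 754 CPM in cells without the list (719 cells, 722–786). H2-K1 in the same cells stood at 2973 CPM, against 1796 CPM.

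**Figure D2:**
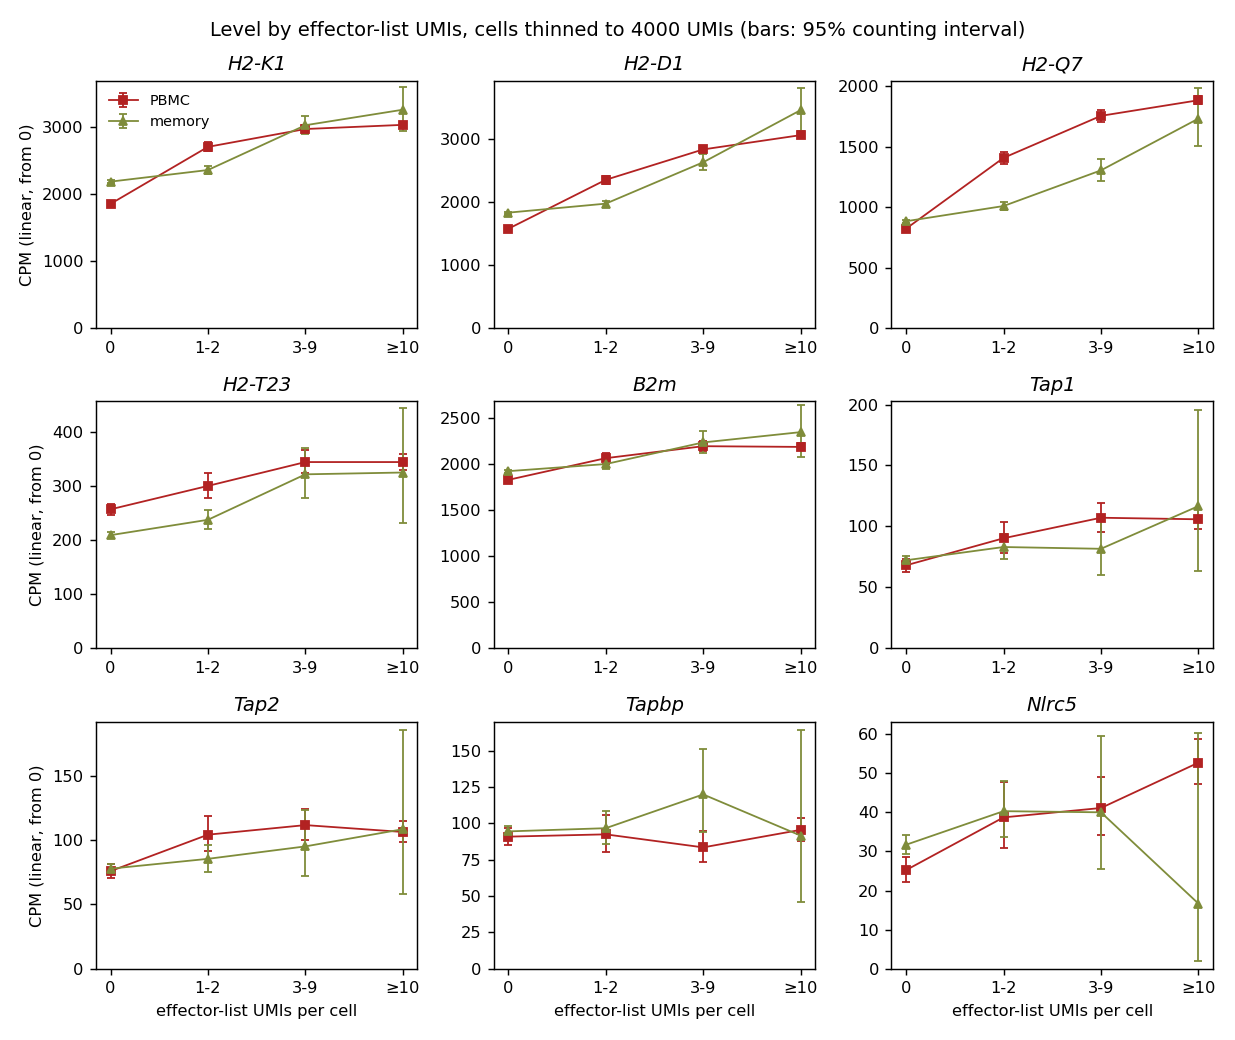
CPM of each gene (linear axes from 0) by the number of effector-list UMIs per cell (0, 1-2, 3-9, 10 or more) in the PBMC and memory libraries, cells thinned to 4000 UMIs, with 95% counting intervals. H2-Q7 in PBMC stood at 822, 1408, 1756 and 1885 CPM over the 4 bins, while Tapbp stayed between 83.6 and 95.6 CPM.

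H2-K1, H2-D1, H2-Q7 and Nlrc5 were higher in each further bin of effector UMIs in blood, while B2m, Tap1, Tap2 and H2-T23 were no higher at 10 or more than at 3-9. Counting intervals overlapped for H2-K1 between 3-9 and 10 or more. For Nlrc5 they overlapped between 1-2 and 3-9 and between 3-9 and 10 or more, so those steps are within counting error. H2-D1 in PBMC stood at 1578, 2357, 2841 and 3069 CPM in cells with 0, 1-2, 3-9 and 10 or more effector UMIs, and H2-K1 at 1852, 2704, 2970.01 and 3032 CPM. The memory library, gated against KLRG1, held 180 effector-list cells, and 3 of the 9 genes were at least 1.5-fold higher there than in the 5795 cells without the list, while 24.2% of genes were. These were H2-Q7 at 1376 CPM, against 884 CPM (1.56-fold, 1.46–1.66), H2-T23 (1.54-fold, 1.34–1.76) and H2-D1 (1.51-fold, 1.45–1.58). In TdLN 53 cells met the effector rule. They held 6476 CPM of myeloid marker RNA, against 138 CPM in TdLN cells without the list, and their member levels (5 of 9 past 1.5-fold, while 40.9% of genes were) are not read as those of T cells.

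Without effector-list RNA, the order of the libraries changed for H2-K1, H2-D1, H2-Q7, B2m, Tap1, Tap2 and Nlrc5, but not for H2-T23 and Tapbp. In an alternative added after seeing the data, only cells with 0 effector UMIs were kept in each library. H2-Q7 then stood at 0.852 of PBMC in TdLN (0.838–0.866), past 1.5-fold no longer, and H2-D1 at 1.02 (1.01–1.03). PBMC over memory was below 1, not above it, for H2-Q7 (0.872), H2-D1 (0.829) and H2-K1 (0.825). H2-T23 stayed highest in PBMC, with ratios of 0.922 in TdLN over PBMC (0.897–0.948), 1.24 in PBMC over memory (1.21–1.28) and 1.14 in TdLN over memory (1.12–1.17). Nlrc5 in TdLN over PBMC was at 1.27 (1.17–1.38), where it was at 0.951 in all kept cells (0.893–1.01). Tapbp kept its difference, at 1.76-fold in TdLN over PBMC (1.68–1.84) and 1.63-fold in TdLN over memory (1.58–1.69), and Tap1 reached 1.53-fold in TdLN over PBMC (1.46–1.61). With equal weight for each cell instead of summed counts, which gives shallow effector cells more weight, H2-Q7 in PBMC over memory was 1.49.

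**Figure D3:**
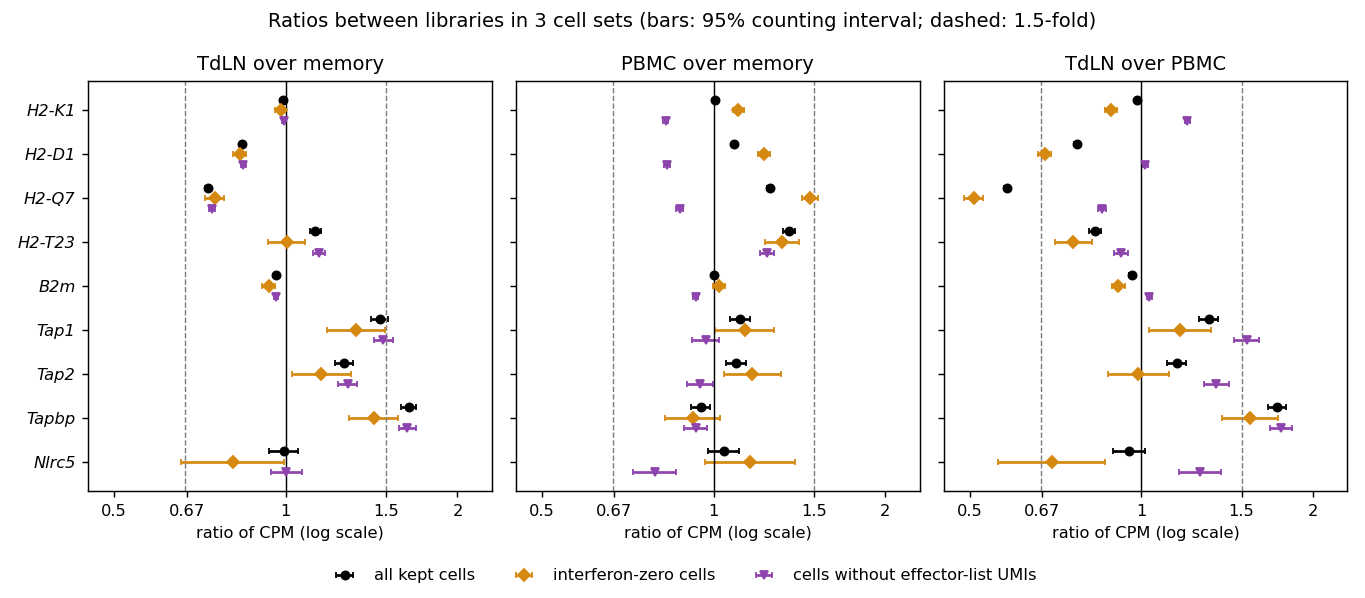
Ratio of CPM (log axis) for TdLN over memory, PBMC over memory and TdLN over PBMC in all kept cells, in interferon-zero cells and in cells without effector-list UMIs, with 95% counting intervals and dashed lines at 1.5-fold either way. H2-Q7 in TdLN over PBMC was 0.582 in all kept cells and 0.852 in cells without effector-list UMIs, and Tapbp was 1.73 and 1.76.

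Interferon-responding cells were then marked by a core list of 20 interferon-stimulated genes (among them Isg15, Ifit1, Ifit3, Rsad2, Usp18, Mx1 and Irf7), which holds no class I gene. A cell thinned to 4000 UMIs was interferon-high with at least 5 UMIs of the list and interferon-zero with none. Interferon-high cells made up 15.8% of TdLN cells (963 of 6078, 14.9–16.8), 7.43% of PBMC cells (392 of 5273, 6.74–8.18) and 2.72% of memory cells (184 of 6763, 2.35–3.14), Clopper-Pearson intervals. Interferon-zero cells made up 23.3%, 28.7% and 32.2%. Of cells with 0 effector UMIs, 15.5% were interferon-high in TdLN (14.5–16.4), 8.93% in PBMC (7.82–10.1) and 2.64% in memory (2.24–3.09). The cut falls within a continuous range: 365 TdLN, 260 PBMC and 212 memory cells lay just outside it at 4 UMIs, and 224, 118 and 86 just inside it at 5. Median raw depth was 9721 UMIs in interferon-high and 9760 UMIs in interferon-zero TdLN cells, 9702 and 7595 UMIs in PBMC, and 10055 and 10162 UMIs in memory.

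H2-T23 was higher in interferon-high cells of all 3 libraries. In TdLN it stood at 369 CPM in interferon-high cells, against 203 CPM in interferon-zero cells, 1.82-fold (1.68–1.97). In PBMC it stood at 444 CPM, against 267 CPM (1.66-fold, 1.52–1.82), and in memory at 337 CPM, against 202 CPM (1.67-fold, 1.45–1.9). In cells with at least 10 list UMIs (348 TdLN, 106 PBMC and 54 memory cells) the ratio was 2.13 (1.93–2.36), 2.23 (1.95–2.55) and 2.45 (2–2.98), with myeloid marker sums of 545 CPM in those TdLN cells, 82.5 CPM in PBMC and 55.6 CPM in memory. TdLN interferon-high cells, 15.8% of the cells, held 23.8% of that library's H2-T23 UMIs.

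Tap1, Tapbp and Nlrc5 were past 1.5-fold in TdLN, and Tap1 also in memory. Tap1 in TdLN stood at 152 CPM in interferon-high cells, against 94.5 CPM in interferon-zero cells (1.61-fold, 1.42–1.81). The Tap1 ratio was 1.45 in PBMC (1.22–1.73) and 1.66 in memory (1.31–2.08). Tapbp was 1.69-fold higher in TdLN (227 CPM, against 134 CPM; 1.53–1.87), and its ratio was 1.38 in PBMC (1.16–1.63) and 1.31 in memory (1.04–1.63). Nlrc5 was 1.93-fold higher in TdLN (48.8 CPM, against 25.2 CPM; 1.55–2.42), with ratios of 1.37 in PBMC (1.05–1.79) and 1.39 in memory (0.931–2.01), an interval that spans 1. Tap2 stayed under 1.5-fold, at 1.33 in TdLN, 1.28 in PBMC and 1.21 in memory.

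The abundant chains differed little between the classes. H2-K1 in TdLN stood at 2496 CPM in interferon-high cells, against 2135 CPM in interferon-zero cells, a ratio of 1.17 (1.14–1.2), and the ratio was 1.03 in PBMC (0.997–1.07) and 1.14 in memory (1.09–1.2). H2-D1 was at 1.15 in TdLN (1.11–1.18), 1.001 in PBMC (0.964–1.04) and 0.975 in memory (0.921–1.03). H2-Q7 was at 1.16 in TdLN (1.11–1.22), 0.978 in PBMC (0.931–1.03) and 1.14 in memory (1.05–1.22). B2m was above 1 in all 3, at 1.21 in TdLN (1.18–1.248), 1.14 in PBMC (1.1–1.19) and 1.10 in memory (1.04–1.16).

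In TdLN interferon-high cells, 4 of 9 members were at least 1.5-fold higher, while 3.27% of 4582 genes were, leaving out the list that made the classes. In PBMC 1 of 9 was (H2-T23), while 3.05% of 4453 genes were, and in memory 2 of 9 (H2-T23 and Tap1), while 6.36% of 4466 genes were. No member was lower by as much, while 0.764%, 2.74% and 3.47% of genes were. The members' median log2 ratio was 0.41 in TdLN, 0.35 in PBMC and 0.28 in memory, where the medians over all genes were 0.02, -0.04 and 0.04. At 10 or more UMIs the counts were 4, 5 and 3 of 9, while 6.62%, 9.36% and 17.1% of genes were higher by as much. With at least 3 UMIs as the rule, H2-T23 (1.55) and Nlrc5 (1.76) in TdLN remained past 1.5-fold and no member did in PBMC or memory. With an interferon gamma-linked list in place of the core list, H2-T23 (1.57) and Tapbp (1.52) in TdLN and Tap1 (1.58) in PBMC were past it, and none in memory. The share of all genes past 1.5-fold was not computed under either of these rules. Whether the differences in TdLN and the other libraries are unlike was not tested.

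**Figure D4:**
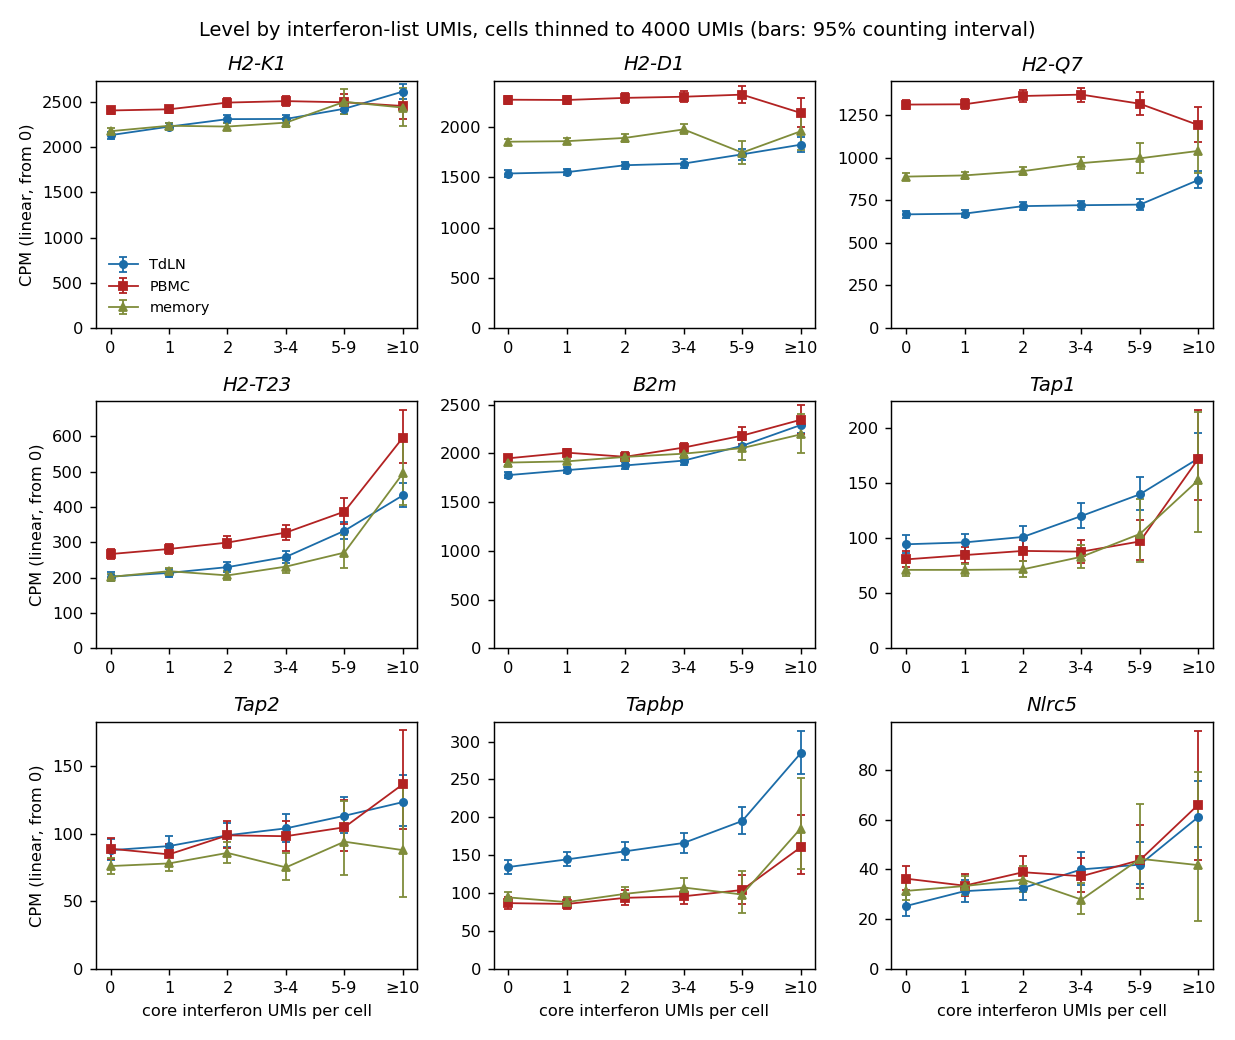
CPM of each gene (linear axes from 0) by the number of core interferon UMIs per cell in the TdLN, PBMC and memory libraries, cells thinned to 4000 UMIs, with 95% counting intervals. H2-T23 was highest in the last bin of every library, while H2-D1 and H2-Q7 in PBMC were lower there (2142 and 1193 CPM) than in cells with no list UMI (2273 and 1314 CPM).

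Other RNA moved with the interferon classes. In TdLN, myeloid markers summed to 289 CPM in interferon-high and 248 CPM in interferon-zero cells, and without cells that held at least 5 UMIs of other lineages H2-T23 was at 1.80 and Nlrc5 at 1.80. B cell markers summed to 347 CPM in interferon-high and 332 CPM in interferon-zero cells of TdLN, 131 and 71.3 CPM in PBMC, and 36.7 and 148 CPM in memory. Cells with at least 5 UMIs of other lineages made up 12.3% of PBMC cells with 10 or more list UMIs and 4.57% of interferon-zero PBMC cells, and their part in the PBMC ratios at 10 or more was not tested. In PBMC the 6 effector genes summed to 1783 CPM in interferon-high and 3028 CPM in interferon-zero cells. Among PBMC cells with no effector UMI, H2-T23 was at 1.72 (1.5–1.97), Nlrc5 at 1.63 (1.07–2.45) and Tap1 at 1.63 (1.24–2.13). These ratios came from 215 interferon-high and 684 interferon-zero cells. The share of all genes past 1.5-fold was not computed for this split, so these 3 of 9 members have no background. H2-K1 and H2-D1 were then at 1.12 each (1.05–1.18 and 1.05–1.19). Among PBMC effector-list cells, H2-T23 was at 1.80 (1.57–2.06) and H2-D1 at 1.08 (1.03–1.14), from 135 interferon-high and 668 interferon-zero cells.

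Library differences were then recomputed among interferon-zero cells alone. H2-T23 stood at 203 CPM in TdLN, against 202 CPM in memory, a ratio of 1.004 (0.931–1.08), where it was 1.13 in all kept cells. Tapbp stood at 134 CPM in TdLN, against 94.3 CPM in memory (1.43-fold, 1.29–1.57), and Tap1 at 94.5 CPM, against 71.2 CPM (1.33-fold, 1.18–1.49). No member was past 1.5-fold in TdLN over memory, while 17.3% of 4592 genes were, nor in PBMC over memory, while 12.7% of 4488 genes were. In TdLN over PBMC, Tapbp was 1.55-fold higher (1.38–1.74) and H2-Q7 1.97-fold lower (1.89–2.04), 2 of 9, while 19.3% of 4673 genes were past it. In cells that also had 0 effector UMIs, H2-Q7 was at 0.835 (0.792–0.881) and no longer past it, Tapbp was at 1.54 (1.33–1.79) and Tap1 at 1.55 (1.3–1.86). Among interferon-high cells Tapbp was 1.84-fold higher in TdLN than in memory (227 CPM, against 124 CPM; 1.48–2.31), 1 of 9 members, while 26.1% of 4768 genes were past it either way. In the same cells PBMC over memory had 0 members past it (22.6% of genes), and TdLN over PBMC had Tapbp at 1.91 and H2-Q7 1.65-fold lower (18.7% of genes).

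The wider pathway was described through 4 lists. The 5 immunoproteasome and activator genes (Psmb8, Psmb9, Psmb10, Psme1 and Psme2), whose products cut proteins into class I peptides, had ratios above 1 in interferon-high cells of all 3 libraries, with median log2 ratios of 0.39 in TdLN, 0.36 in PBMC and 0.40 in memory. Psmb10 in memory reached 1.5-fold (264 CPM, against 176 CPM; 1.29–1.74), the only one of the 15 values to do so. Between libraries none of the 5 was past 1.5-fold in any pair. Of 7 peptide loading and trimming genes (Erap1, Calr, Canx, Pdia3, Tapbpl, Pdia6 and Hspa5), none was past 1.5-fold between the interferon classes in any library. Hspa5, an endoplasmic reticulum chaperone, was the list's only member past it between libraries, at 1.78-fold in TdLN over memory (1.73–1.83) and 1.64-fold in TdLN over PBMC (1.59–1.69).

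Of 10 other class I or class I-like genes with a count row, 4 or 5 passed 20 CPM in each interferon comparison. H2-T22 was higher in interferon-high cells of each library, at 1.63-fold in TdLN (225 CPM, against 138 CPM; 1.48–1.79), 1.53-fold in PBMC (1.34–1.75) and 1.51-fold in memory (1.23–1.84). H2-Q10, another Q-region gene with near-identical relatives, was 3.69-fold lower in TdLN than in memory (3.4–3.99) and 2.99-fold lower than in PBMC (2.75–3.26). H2-T24 was low throughout and stood at 10.4 CPM in interferon-high and 1.77 CPM in interferon-zero TdLN cells, under the 20 CPM minimum. Among genes of transcriptional control, Irf9, which takes part in the response to type I interferon, was past 1.5-fold in each library. Irf9 was at 1.83 in TdLN (1.5–2.25), 2.48 in PBMC (1.88–3.25) and 2.58 in memory (1.78–3.67). Stat2 stood at 8.83 CPM in TdLN, 8.10 CPM in PBMC and 7.59 CPM in memory and passed the 20 CPM minimum only through the interferon-high class, so its difference is a description and supports nothing. Irf1, an activator of class I promoters, was at 1.33 in TdLN (1.18–1.51), 1.20 in PBMC (0.992–1.44) and 1.21 in memory (0.947–1.53). The RFX and NF-Y subunit genes that passed 20 CPM (Rfxap, Nfyb and, in TdLN and PBMC, Nfyc) lay between 0.957 and 1.17.

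**Figure D5:**
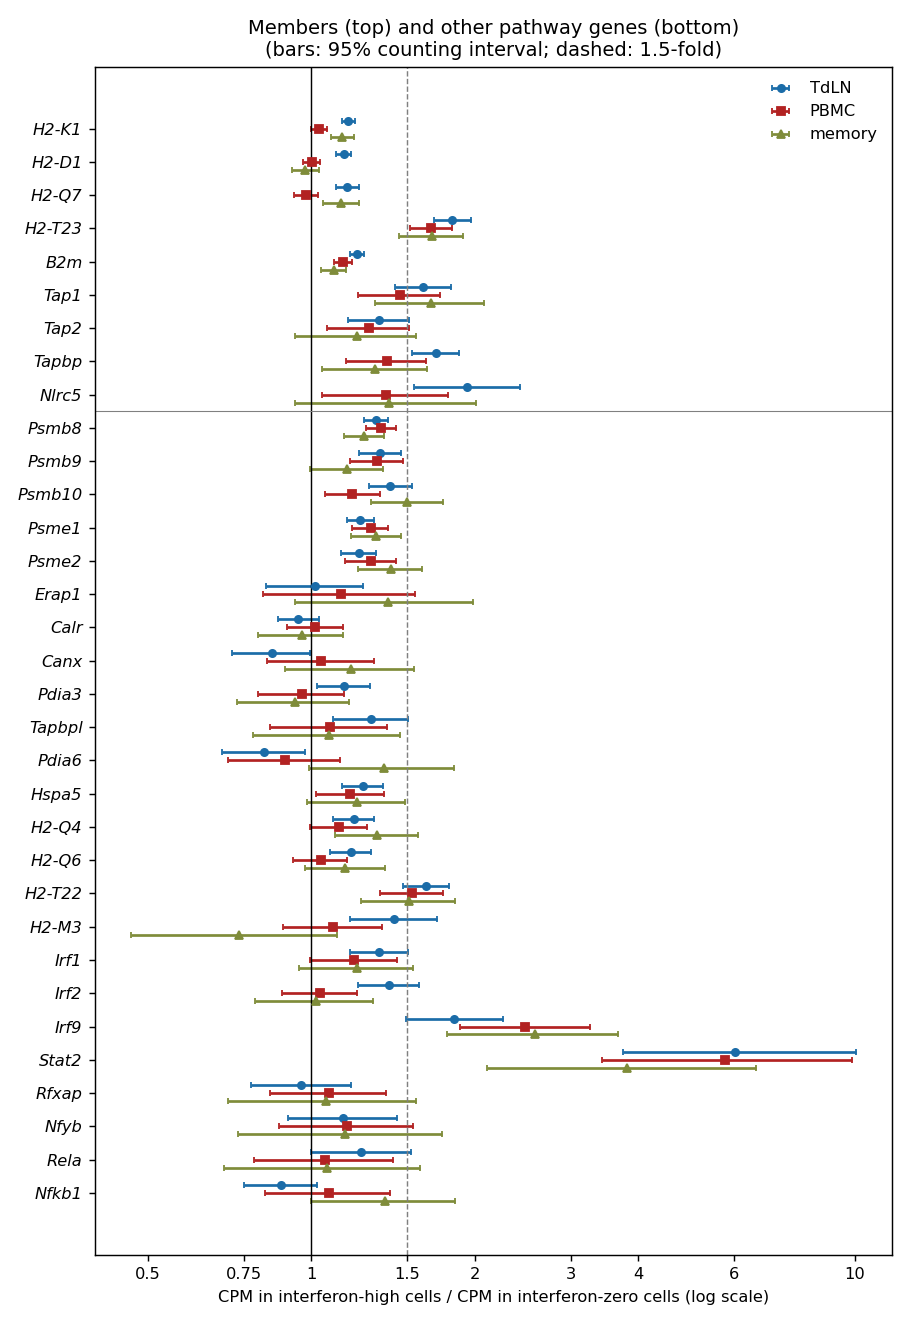
Ratio of CPM in interferon-high over interferon-zero cells (log axis) in the TdLN, PBMC and memory libraries, with 95% counting intervals, for the 9 members above the line and, below it, genes of the 4 lists with at least 20 CPM in the higher class of all 3 libraries. H2-T23, H2-T22 and Irf9 were past the dashed 1.5-fold line in each library (as was Stat2, which reached 20 CPM in interferon-high cells only), and H2-K1, H2-D1, H2-Q7 and B2m in none.

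H2-Q7, H2-D1 and H2-K1 varied more between cells in blood than in the other libraries, while H2-T23, Tap1 and Tapbp varied most in TdLN and B2m about equally in TdLN and PBMC. In thinned cells H2-Q7 had a median of 3 UMIs per cell in TdLN (10th to 90th percentile 1 to 5), 5 in PBMC (1 to 10) and 3 in memory (1 to 6). The variance of H2-Q7 divided by its mean was 1.32 in TdLN cells, 2.32 in PBMC cells and 1.27 in memory cells. H2-D1 was at 1.38, 2.35 and 1.35 by the same measure, and H2-K1 at 1.69, 2.20 and 1.503. In cells with 0 effector UMIs the PBMC values were lower but still above the others: H2-Q7 was at 1.31 in TdLN, 1.68 in PBMC and 1.21 in memory, H2-D1 at 1.34, 1.70 and 1.26, and H2-K1 at 1.60, 1.79 and 1.44. Among all genes of 1000 to 3000 CPM the median in all thinned cells was 1.42 in TdLN, 1.85 in PBMC and 1.30 in memory. Among genes of 200 to 1000 CPM, where H2-Q7 lay in TdLN and memory, it was 1.13 in TdLN and 1.06 in memory. As a description with no p, Pearson correlations of H2-K1 with H2-D1 across cells were 0.21 in TdLN, 0.48 in PBMC and 0.21 in memory, and those of H2-D1 with H2-Q7 were 0.14, 0.51 and 0.16. In cells with 0 effector UMIs they were 0.198, 0.308 and 0.179 for H2-K1 with H2-D1, and 0.136, 0.279 and 0.125 for H2-D1 with H2-Q7. The cells of a library share depth and capture, so these values do not speak for shared control. The genes whose cell-to-cell pattern was most like the members' summed UMIs, of 1552 genes of at least 50 CPM in each library, were Malat1, Ms4a4b, Nkg7, Ccl5, Tmsb4x, Id2, Lgals1, S100a10, S100a6 and Cyba. Their mean correlation over the 3 libraries ran from 0.247 to 0.341, where the median gene had 0.042. Each of these 10 correlated most in PBMC: Ccl5, a chemokine of effector and memory cells, had 0.678 in PBMC, 0.0556 in TdLN and 0.111 in memory, and 0.351, 0.0293 and 0.0617 in cells with 0 effector UMIs.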

How the data were processed

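Sorted mouse CD8 T cells had been profiled with 10x Genomics 3' kits, 1 library per group. The authors deposited UMI counts, whole numbers for each gene in each barcode, and per the submitters' processing notes Cell Ranger 3.1.0 and mm10 were used. Barcodes had already been called as cells: 7503 in TdLN, 6165 in PBMC and 8321 in memory. Coordinates come from GENCODE M21 (GRCm38, the same assembly). 3' counts tell no isoforms apart, and levels were compared between libraries or cell classes, not between genes.

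Barcodes under 500 genes or over 10% mt- counts were dropped. No doublet caller was run; an alternative left out the 5% of cells with the most UMIs. Counts were summed per library and divided by totals (CPM). Intervals are exact Poisson for CPM, conditional binomial for ratios and Clopper-Pearson for shares (scipy 1.17.1), at 95%. Floors are 3 counts. TMM factors came from edgeR 4.0.16, used for scaling only. The calculation was tested on simulated counts. Named genes are the members, the listed pathway genes of at least 20 CPM and the 10 most correlated genes. Members and lists were chosen with earlier results of these data known, and the effector split, H2-T24 and the beta segments were taken up after values were seen. H2-K2 and H2-T10 of the lists had no row under these symbols. Some genes and results are not reported here.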

Additional observations from a re-analysis of the deposited data

How the results depend on the processing

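No member ratio past 1.5-fold changed sign under any alternative. Of counts and shares that answer a comparison, 78 alternatives stayed near the value reported and 39 moved, and of single gene ratios 475 stayed within their intervals and 254 moved. The count of members past 1.5-fold in TdLN over memory was 2 with stricter cells (at least 1000 genes, at most 5% mitochondrial counts), Tap1 then at 1.501. Among the 9 alternatives for each library ratio was leaving out cells with at least 5 UMIs of other lineages. Over these 9, TdLN over memory ran from 1.48 to 1.71 for Tapbp and from 1.31 to 1.501 for Tap1. At 2-fold it was 0 in TdLN over memory and 0 in TdLN over PBMC, and at a ratio of 5 to 4 it was 4 for TdLN and memory, 2 for PBMC and memory and 4 for TdLN and PBMC. The count of all genes past 1.5-fold was 7974 for TdLN and memory, 6351 for PBMC and memory and 7481 for TdLN and PBMC without a filter on low values, and 208, 85 and 159 at 100 CPM or more. With totals lacking ribosomal, mitochondrial, Gm42418 and Lars2 counts, and the 20 CPM minimum applied anew on those smaller totals, which lets more genes through, it was 703 in PBMC over memory and 1031 in TdLN over PBMC; over the genes compared before, 146 were higher and 235 lower in PBMC over memory, and 458 higher and 195 lower in TdLN over PBMC. Members higher in interferon-high cells numbered 2 in TdLN, 0 in PBMC and 0 in memory at 3 list UMIs, 5 in PBMC at 10, and 3 in PBMC and 4 in memory after thinning to 2000 UMIs. In PBMC they numbered 2 with another thinning seed (Tapbp 1.69), 2 without Isg15 and Irf7 in the list, and 3 in cells with 0 effector UMIs. With the gamma-linked list they numbered 2 in TdLN and 0 in memory. All genes past 1.5-fold between the classes numbered 4054 in TdLN, 5005 in PBMC and 5785 in memory without a filter. The share of interferon-high cells was 31.5%, 22.3% and 13.9% in TdLN, PBMC and memory at 3 UMIs, 5.73%, 2.01% and 0.798% at 10, and 6.64%, 2.66% and 1.11% at 2000 UMIs. In the effector split, 3 members were past 1.5-fold in TdLN without interferon-high cells and 5 in memory at 5 UMIs. The share of all genes was not computed for these effector-split settings or for the stricter cells. Nor was it computed at 3 list UMIs, at 2000 UMIs, with the changed lists or in cells with 0 effector UMIs. Member counts under those settings have no background to be read against. Causes were not tested. No paired analysis was possible because each group had 1 library, and for the same reason no replicate could be left out. Counts limited Nlrc5 ratios, and cell number (184) the interferon-high class of memory.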

Other observations

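Dividing cells of TdLN had lower levels of some members. The 289 TdLN cells with at least 3 UMIs of 9 cell division genes held 1754 CPM of H2-K1, against 2314 CPM in the 5081 cells with none, a ratio of 0.758 (0.725–0.793). H2-Q7 was at 0.727 (0.669–0.789) and H2-T23 at 0.748 (0.65–0.857). H2-D1 at 0.932 (0.888–0.978) and B2m at 0.979 (0.937–1.02) were closer to 1, and Tap1 was at 1.30 (1.1–1.52). No ratio reached 1.5-fold. The share of all genes past it was not computed here, and whether the whole profile shifted in dividing cells was not tested.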
